A study of Mus musculus with 8 samples.

Results

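The genes described here encode 10 chains of collagens that do not build the banded fibrils of cartilage: Col6a1, Col6a2 and Col6a3 of collagen VI, Col9a1, Col9a2 and Col9a3 of collagen IX, Col12a1, Col14a1 and Col16a1 of collagens XII, XIV and XVI, and Col8a1 of collagen VIII. They were taken as a fixed list of gene symbols and found by their mouse Ensembl identifiers, a rule that uses no measured value. They make up 10 of the 52636 genes in the tables, and all 10 were among the 12538 protein-coding genes that were tested because their TPM, a length-scaled share of all transcripts, exceeded 1 in at least 1 library. Col14a1 was the lowest of them and lay below that level in 1 library.

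The study asked what OSCAR, the osteoclast-associated receptor, a cell surface receptor that binds collagen, does in osteoarthritis of the mouse knee. The sequenced RNA is described as articular cartilage in the paper's results, while its methods state extraction from knee joint tissues, and it is called cartilage here. It came from 2 genotypes, wild-type (WT) C57BL/6J males that were purchased and Oscar-/- males on a C57BL/6 background, in which the gene is disrupted. Genotype and the origin of the animals therefore cannot be told apart. Each genotype received either sham surgery or destabilisation of the medial meniscus (DMM), an operation that frees the medial meniscus and leads to osteoarthritis, and was taken at 2 or 4 weeks. The label age was 10 weeks, and the protocol gives an age of 10 to 12 weeks for the DMM operation. This gave 8 conditions with 1 library each, and each library was made from 10 combined cartilages, so that the spread between animals within a condition was not measured. The tests therefore used the 2 weeks in place of replicates. Their p-values set a difference between groups against a spread. That spread is how far the 2 libraries of a genotype and surgery differ once an overall difference between the weeks is taken out. The weeks are different biological times, and the labels name no batch. The names of the deposited tables carry lane codes, 1 shared by all 2-week libraries and separate ones for WT and Oscar-/- at 4 weeks, so that lane cannot be told apart from week, nor from genotype at 4 weeks.

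The libraries held 13189181 to 18533609 expected counts. Oscar had 48, 118, 42 and 94 counts in the 4 WT libraries and 0 in each of the 4 Oscar-/- libraries, where a count of 0 allows up to 3 counts per library, so that the genotype labels fitted the data. Of 18 chondrocyte markers, 14 exceeded 1 TPM in every library, and their summed level was 1845.8 to 5467.8 TPM. The tissue also held other cells, since 4 haemoglobin genes took 26.5% to 37.7% of all TPM and 10 neutrophil markers summed to 67800.2 to 109192.1 TPM. In such bulk RNA, fewer cells of a type and less RNA per cell cannot be told apart.

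As background, collagen VI is a heterotrimer of 3 different chains that assembles into beaded microfilaments and forms much of the pericellular matrix around each chondrocyte. Collagen IX is also a heterotrimer and sits on the surface of collagen II fibrils in cartilage, as one of the fibril-associated collagens with interrupted triple helices. Collagens XII, XIV and XVI belong to the same fibril-associated group and are homotrimers, with collagens XII and XIV typical of dense connective tissue and collagen XII raised where tissue bears tension. Collagen VIII is a short-chain, network-forming collagen of vessel walls and of the corneal endothelium.

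The promoters shown are those of the 4 genes that passed the test of a genotype difference in the DMM response, the 3 collagen VI chains and Col16a1. The choice rests on that threshold alone. Col12a1, which missed it, correlated with these genes over the libraries at Pearson's r of 0.94 to 0.98. Each is the RefSeq window on GRCm38.p6 from 250 bases before to 50 bases after a transcription start, 5′ to 3′ on the gene's strand, and capitals mark matches to 5 searched motifs on either strand: the GC box GGGCGG, the CCAAT box CCAAT, the AP-1 site TGANTCA, the SOX site ACAAAG and the TATA box TATAAA. For Col6a2, which has more than 1 window, the one at the GENCODE gene start is printed.
Col6a1, chr10:76725995-76726294, minus strand: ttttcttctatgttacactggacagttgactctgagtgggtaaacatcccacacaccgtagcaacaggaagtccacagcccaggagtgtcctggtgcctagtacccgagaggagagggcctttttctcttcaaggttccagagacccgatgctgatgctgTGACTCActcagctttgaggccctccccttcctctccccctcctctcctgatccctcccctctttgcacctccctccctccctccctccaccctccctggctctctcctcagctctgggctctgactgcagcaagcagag
Col6a2, chr10:76623581-76623880, minus strand: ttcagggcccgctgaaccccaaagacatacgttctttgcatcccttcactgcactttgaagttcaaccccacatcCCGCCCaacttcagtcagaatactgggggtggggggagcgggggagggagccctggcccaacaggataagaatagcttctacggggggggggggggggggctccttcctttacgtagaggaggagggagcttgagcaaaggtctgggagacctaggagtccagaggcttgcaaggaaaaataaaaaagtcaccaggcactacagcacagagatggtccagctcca
Col6a3, chr1:90843922-90844221, minus strand: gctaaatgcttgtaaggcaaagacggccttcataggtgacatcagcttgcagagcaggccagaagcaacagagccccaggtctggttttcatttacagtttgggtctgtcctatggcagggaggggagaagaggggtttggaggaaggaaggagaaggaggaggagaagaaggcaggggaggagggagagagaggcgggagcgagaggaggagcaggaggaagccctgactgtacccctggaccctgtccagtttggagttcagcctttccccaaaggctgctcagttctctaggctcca
Col16a1, chr4:130047590-130047889, plus strand: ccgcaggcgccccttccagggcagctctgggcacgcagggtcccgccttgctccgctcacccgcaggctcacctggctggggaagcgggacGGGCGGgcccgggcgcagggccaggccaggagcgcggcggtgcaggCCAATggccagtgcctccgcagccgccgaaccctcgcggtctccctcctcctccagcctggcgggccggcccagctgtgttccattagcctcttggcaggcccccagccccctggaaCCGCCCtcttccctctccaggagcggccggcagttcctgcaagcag

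The Col6a1 window held 1 AP-1 match and no other searched motif, whereas the Col6a3 window held none of the 5. The Col6a2 window held 1 GC box, and the Col16a1 window held 2 GC boxes and 1 CCAAT box. In all, 9 windows matched 7 of the 10 genes, and windows for Col9a3, Col12a1 and Col14a1 were not used here. GC boxes stood in 5 of these 9 windows against 35.7% of all 32851 mouse windows, and CCAAT boxes in 2 of 9 against 37.4%. The AP-1 match occurred in 1 of 9 against 7.8%, while the SOX and TATA letters, present in 18.7% and 13.6% of all windows, were in 0 of 9. No searched motif was present in all 4 printed windows.

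Col6a1 lies on chromosome 10 at 76708792 to 76726168 and Col6a2 on the same chromosome at 76595762 to 76623630, both on the minus strand (GRCm38, GENCODE M21). Col6a3 is on chromosome 1 at 90765923 to 90843971, minus strand, where Col9a1 also lies at 24177610 to 24252684, plus strand. Col9a2 and Col16a1 share the plus strand of chromosome 4 at 121039385 to 121055322 and 130047840 to 130099283. The other genes are on separate chromosomes, Col9a3 on 2 at 180597790 to 180622189, Col12a1 on 9 at 79598991 to 79718831, Col14a1 on 15 at 55307750 to 55520803 and Col8a1 on 16 at 57624258 to 57754737.

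DMM in WT cartilage was accompanied by higher RNA of collagens VI, VIII, XII, XIV and XVI, whereas the collagen IX genes did not pass the test. Of the 10 genes, 7 rose (edgeR quasi-likelihood test, Benjamini-Hochberg adjusted p under 0.05) against 4.36% of all genes tested, and none fell. The median fitted log2 fold change was 1.14 over the 10 genes and -0.01 over all genes.

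Col6a1, the α1 chain of collagen VI, measured 15.95 TPM in WT sham against 45.31 in WT DMM at 2 weeks, then 15.38 against 36.19 at 4 weeks. The Oscar-/- pairs of Col6a1 were 29.64 against 36.82 TPM and 19.42 against 16.38 TPM, for 2 and 4 weeks. Both WT DMM libraries therefore lay above both WT sham libraries, while the Oscar-/- sham and DMM libraries overlapped. Such separation of 2 against 2 libraries is given here and below as a description only. The share of all genes that separate in this way was not counted. The fitted difference for Col6a1 was 1.17 ± 0.15 on the log2 scale (SE, adjusted p = 0.00126) in WT and 0.16 in Oscar-/- cartilage.

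Col6a2, the α2 chain, followed it closely, with WT pairs of 16.17 (sham) against 44.08 TPM (DMM) for 2 weeks and 14.85 against 35.68 for 4 weeks. Without Oscar, Col6a2 read 29.44 against 36.12 TPM and then 20.44 against 16.48. Again only the WT groups were separated, with a fitted difference of 1.12 ± 0.14 (adjusted p = 0.00116).

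Col6a3, the longest of the 3 chains and the source of endotrophin, had WT pairs of 11.06 (sham) against 33.44 TPM (DMM) for 2 weeks and 6.83 against 24.01 for 4 weeks. Its Oscar-/- pairs were 13.92 against 26.75 and 12.56 against 10.66 TPM. The WT groups did not overlap and the rise was 1.63 ± 0.16 (adjusted p = 0.000385), the largest of the 3 chains, whereas the Oscar-/- groups overlapped.

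**Figure D1:**
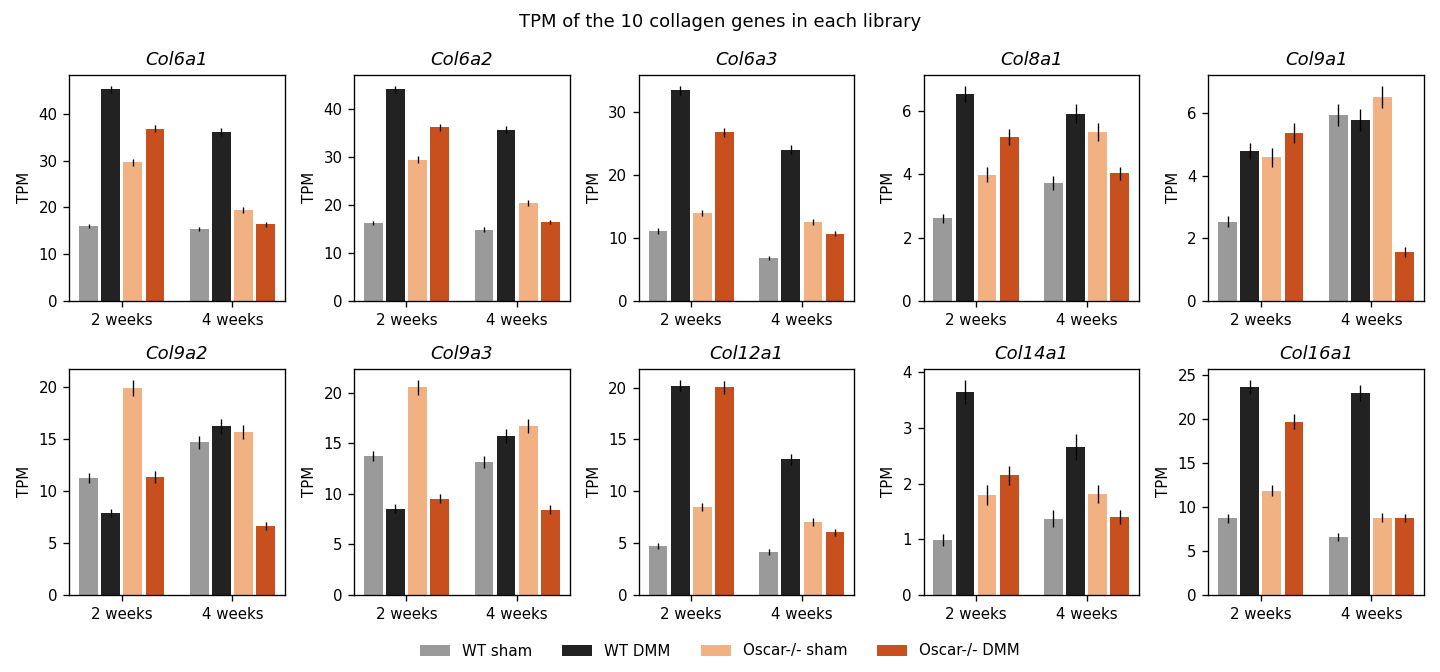
TPM (y axis) of each of the 10 genes in the 8 libraries, grouped by week on the x axis, with 1 bar per library and error bars of 1 counting error, which cover counting only. Col6a1 was at 36.19 to 45.31 TPM in the WT DMM libraries and at 15.38 to 36.82 TPM in the other 6, and Col9a1 was lowest in the Oscar-/- DMM library at 4 weeks, at 1.56 TPM.

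Among the fibril-associated collagens, Col12a1 showed the largest fitted rise in WT cartilage. Its WT pairs were 4.74 (sham) against 20.19 TPM (DMM) for 2 weeks and 4.11 against 13.09 for 4 weeks, which gave 1.71 ± 0.27 (adjusted p = 0.00442). In Oscar-/- cartilage Col12a1 went from 8.47 to 20.01 TPM with DMM at 2 weeks, beside 20.19 in WT DMM, but 4 weeks gave 7.05 against 6.03. The WT groups were separated, and the Oscar-/- groups were not.

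Col16a1, whose product is found in cartilage in thin fibrils with collagens II and XI, rose from 8.71 to 23.69 TPM in WT at 2 weeks and from 6.62 to 22.99 TPM at 4 weeks (1.36 ± 0.19, adjusted p = 0.00215). Its Oscar-/- pairs were 11.86 against 19.74 TPM and 8.79 against 8.74 TPM, so that sham and DMM overlapped. Col14a1, encoding a collagen that limits lateral fibril growth, was scarce, with WT pairs of 0.99 against 3.65 TPM and 1.37 against 2.66 TPM. The fitted rise of Col14a1 was 1.16 ± 0.21 (adjusted p = 0.0103), and its Oscar-/- pairs, 1.80 against 2.15 and 1.81 against 1.40 TPM, overlapped.

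Col8a1, the α1 chain of collagen VIII, had the smallest rise of the 7 genes. Its WT pairs were 2.61 (sham) against 6.55 TPM (DMM) and 3.72 against 5.92 TPM (0.80 ± 0.15, adjusted p = 0.012). In Oscar-/- cartilage the order of sham and DMM changed between the weeks, from 3.99 against 5.18 TPM to 5.34 against 4.03 TPM.

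The collagen IX genes behaved otherwise. Col9a2, the α2 chain, had WT pairs of 11.25 (sham) against 7.89 TPM (DMM) for 2 weeks but 14.69 against 16.23 for 4 weeks. Its Oscar-/- pairs were 19.94 against 11.38 and 15.64 against 6.61 TPM, so that both DMM libraries lay below both sham libraries there, while the WT groups overlapped.

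Col9a3, the α3 chain, repeated this, with WT pairs of 13.72 against 8.54 and 13.13 against 15.69 TPM and Oscar-/- pairs of 20.52 against 9.51 and 16.66 against 8.42 TPM. Col9a1, the α1 chain that carries a large amino-terminal domain in cartilage, had WT pairs of 2.53 against 4.78 and 5.93 against 5.77 TPM. Its Oscar-/- pairs were 4.58 against 5.36 TPM, then 6.52 against 1.56, the last being its lowest level. The fitted WT differences were 0.20 ± 0.40 for Col9a1, -0.33 ± 0.21 for Col9a2 and -0.30 ± 0.22 for Col9a3, with adjusted p-values of 0.806, 0.38 and 0.447. In a fit without the TPM filter, which also took in genes that do not code for protein, edgeR called Col9a2 lower in WT (-0.36, adjusted p = 0.0326). There 1429 genes were called in all, out of more genes than the 12538 of the main fit. Without the WT DMM library at 4 weeks the WT estimate of Col9a3 was -0.87. In Oscar-/- cartilage the fitted differences over all libraries were -0.63 for Col9a1, -0.93 ± 0.21 for Col9a2 and -0.98 ± 0.22 for Col9a3, and the last 2 missed the threshold with adjusted p-values of 0.102 and 0.0994.

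Leaving out the WT DMM library at 2 weeks lowered the number of genes that rose in WT from 7 to 4, where the calls over all genes went from 610 to 147, and a fit without a term for week called 0 of 10 and 0 of all genes.

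In Oscar-/- cartilage, edgeR called none of the 10 genes after DMM, against 0.112% of all genes, so that few genes of any kind passed there. At an unadjusted p under 0.05 there were 3, Col6a3 higher and Col9a2 and Col9a3 lower, beside 11.6% of all genes, while DESeq2 also called 0 and limma called 1. Col12a1 kept the largest positive estimate, 0.57 with an adjusted p of 0.436. The count rose to 2 when the WT sham, WT DMM or Oscar-/- DMM library at 2 weeks, or the WT DMM or Oscar-/- DMM library at 4 weeks, was left out, and to 1 without the WT sham library at 4 weeks, with 13 to 188 calls over all genes in these fits. The median over the 10 genes was 0.09 and that of all genes 0.01.

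The weeks differed within Oscar-/- cartilage, as single-library ratios of DMM to sham showed. At 2 weeks 8 of 10 genes were higher after DMM and the median log2 ratio of TPM was 0.30, with Col12a1 at 1.24, Col6a3 at 0.94 and Col16a1 at 0.74. At 4 weeks all 10 were lower and the median was -0.34, from -0.01 for Col16a1 to -2.06 for Col9a1, where the median over all genes was -0.15. On counts scaled by edgeR's TMM method (TMM-scaled CPM), which set the median of all genes near 0, 10 of 10 were also below 0 at 4 weeks. In WT the medians were 1.45 at 2 weeks and 1.10 at 4 weeks, beside 0.35 and 0.05 over all genes. These ratios rest on 1 library a side, so that only counting error is known for them.

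**Figure D2:**
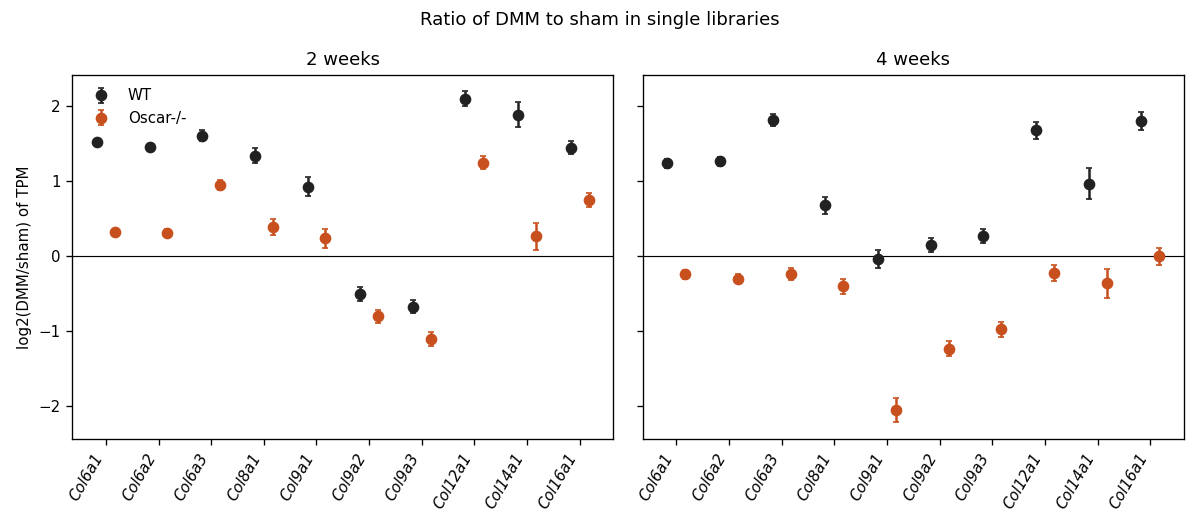
Log2 ratio of TPM between the DMM and the sham library (y axis) for each gene, at 2 weeks (left) and 4 weeks (right), in WT (black) and Oscar-/- (orange), with bars of 1 counting SE. At 4 weeks the WT ratios reached 1.81 for Col6a3, whereas all 10 Oscar-/- ratios lay below 0.

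The interaction of genotype and surgery asks whether the DMM response differed between the genotypes, and it uses the same libraries as the responses above. It passed for 4 of the 10 genes, all with a smaller response in Oscar-/- cartilage, where 3.83% of all genes were called in that direction. These were Col6a1 (-1.01 ± 0.20 on the log2 scale, adjusted p = 0.0249), Col6a2 (-1.03 ± 0.19, adjusted p = 0.0196), Col6a3 (-1.27 ± 0.23, adjusted p = 0.019) and Col16a1 (-1.14 ± 0.26, adjusted p = 0.0342). Col8a1, Col12a1 and Col14a1 had estimates of -0.73, -1.15 and -1.06 with adjusted p-values of 0.073, 0.0984 and 0.0656. The 3 collagen IX genes had -0.84 ± 0.57, -0.60 ± 0.29 and -0.68 ± 0.31, and did not pass. The median was -1.02, beside -0.01 over all genes tested.

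At 2 weeks the 4 libraries shared a lane code. There the difference between the single-library TPM responses of the genotypes was -1.2 for Col6a1, -1.15 for Col6a2, -0.66 for Col6a3 and -0.70 for Col16a1. The median TPM response over all genes was itself 0.35 in WT and -0.03 in Oscar-/- at 2 weeks. On TMM-scaled counts the differences were -0.79, -0.73, -0.84 and -0.57 in the same order. The calls depended on single libraries, over all genes as well as here. Without the Oscar-/- sham library at 2 weeks, the WT DMM library at 4 weeks or the Oscar-/- sham library at 4 weeks, 0 of 10 genes passed, whereas 7 passed without the WT sham library at 4 weeks and 8 without the Oscar-/- DMM library at 2 weeks. The calls over all genes, 657 with every library, were 37, 15 and 102 in the first 3 of these fits, and 1977 and 409 in the last 2. Without a term for week, 0 of 10 and 0 of all genes passed.

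**Figure D3:**
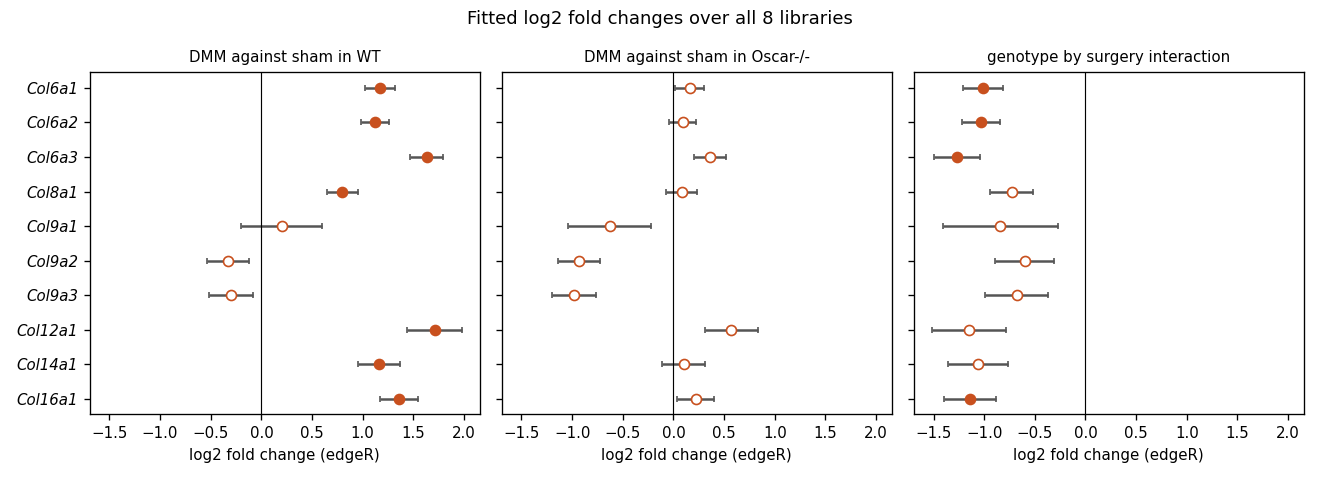
Log2 fold changes fitted by edgeR over the 8 libraries (x axis) for each gene (y axis), with bars of 1 SE and filled points where the adjusted p was under 0.05. The left panel holds 7 filled points, the middle panel none and the right panel 4, for the 3 collagen VI genes and Col16a1.

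After sham surgery all 10 genes had positive estimates in Oscar-/- against WT cartilage, but edgeR called none, against 2.18% of all genes. At an unadjusted p under 0.05 there were 7, all higher, where 18.7% of all genes passed at that level, and DESeq2 called 2 and limma 0. The estimates ranged from 0.24 for Col9a2 to 0.74 for Col12a1, with a median of 0.53, and Col6a3 came nearest to the threshold (0.72 ± 0.17, adjusted p = 0.0545). Within each week, 10 of 10 single-library ratios of Oscar-/- to WT sham were above 0, with a median of 0.83 at 2 weeks and 0.41 at 4 weeks, beside 0.28 and -0.05 over all genes. Leaving out the Oscar-/- DMM library at 2 or at 4 weeks raised the count to 5, and leaving out the WT sham library at 4 weeks raised it to 4, while the calls over all genes went from 273 to 408, 411 and 893.

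After DMM the estimates of all 10 genes were below 0 in Oscar-/- against WT, from -0.25 for Col8a1 to -0.57 for Col16a1 with a median of -0.42, and edgeR called none, against 0.0479% of all genes. DESeq2 and limma also called 0. At an unadjusted p under 0.05 there were 5, all lower, beside 12.7% of all genes. Without the Oscar-/- DMM library at 2 weeks, 6 passed the adjusted threshold among 48 genes in all. At 2 weeks 7 of 10 TPM ratios were below 0 with a median of -0.28, whereas at 4 weeks 10 of 10 were, with a median of -1.13 beside -0.27 over all genes. Col9a1 at -1.89 and Col16a1 at -1.40 were the lowest at 4 weeks.

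Between 2 and 4 weeks the 3 collagen VI genes, Col12a1 and Col16a1 fell, 5 of 10 genes against 10.9% of all genes called lower. The fitted difference was -0.84 ± 0.10 for Col6a1 (adjusted p = 0.000481), -0.82 ± 0.10 for Col6a2 (adjusted p = 0.000387) and -0.65 ± 0.11 for Col6a3 (adjusted p = 0.00379). It was -0.86 ± 0.19 for Col12a1 (adjusted p = 0.00998) and -0.62 ± 0.13 for Col16a1 (adjusted p = 0.0085). The Oscar-/- DMM libraries differed most, with a median ratio of 4 to 2 weeks of -1.15 on the log2 scale of TPM and 10 of 10 genes below 0, beside -0.06 in WT sham, -0.23 in WT DMM and -0.28 in Oscar-/- sham. The TPM scale itself shifted the median of all genes between the weeks by 0.54 and 0.27 in WT after sham and DMM, and by 0.20 and 0.11 in Oscar-/-. On TMM-scaled counts the medians were -0.39, -0.44, -0.49 and -1.18 in the same order.

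The chains of collagen VI kept a steady proportion for α1 and α2. The ratio of Col6a2 to Col6a1 TPM, which compares the genes per length, was 0.97 to 1.05 in the 8 libraries, although both genes varied about 3-fold (2.95 and 2.97 times between the lowest and the highest library). Col6a3 to Col6a1 ranged from 0.44 to 0.74 in TPM. For Col6a3 the effective length that the authors' software assigned varied from 2371 to 3909 bases between libraries, and the ratio of expected counts, which that length does not enter, ranged from 0.42 to 0.62. In counts the ratio was 0.42 and 0.44 in the WT sham libraries and 0.57 and 0.62 in WT DMM, whereas Oscar-/- gave 0.42 and 0.59 after sham and 0.55 and 0.59 with DMM, so that its groups overlapped. In TPM the WT pair at 2 weeks was closer, 0.69 against 0.74.

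In collagen IX, Col9a2 to Col9a3 ranged from 0.79 to 1.2 in TPM, and from 0.85 to 1.13 in counts. Col9a1 was the scarce chain at 0.18 to 0.56 of Col9a3 in TPM. At 2 weeks this ratio was 0.18 and 0.22 in the sham libraries of WT and Oscar-/- and 0.56 in both DMM libraries. At 4 weeks it was 0.45 and 0.37 in WT sham and DMM and 0.39 and 0.19 in Oscar-/- sham and DMM, the opposite order. Col9a3 was the only one of the 10 genes with fractional expected counts, found in 8 of 8 libraries, which means that some of its reads were shared with another gene, and its level is uncertain to that extent.

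**Figure D4:**
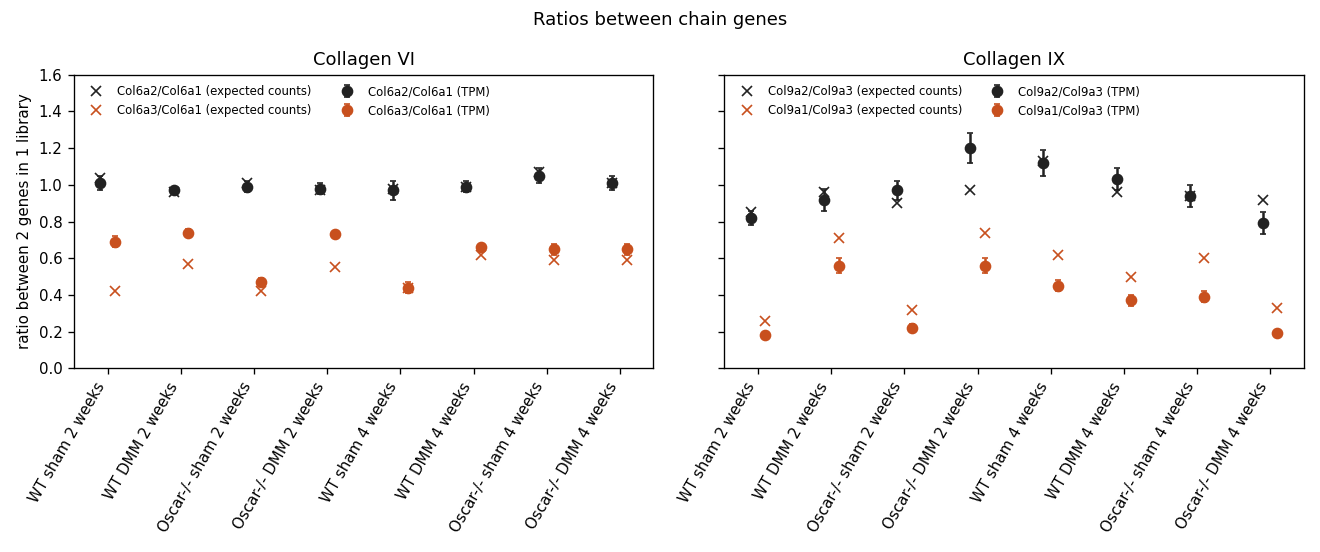
Ratio between chain genes of collagen VI (left) and collagen IX (right) on the y axis in each library on the x axis, from TPM (circles, bars of 1 counting SE) and from expected counts (crosses). Col6a2 to Col6a1 stayed between 0.97 and 1.05 in TPM, and Col9a1 to Col9a3 varied from 0.18 to 0.56.

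Summed over its chains, collagen VI reached 122.83 and 95.88 TPM in WT DMM at 2 and 4 weeks, where WT sham had 43.18 and 37.06 TPM. The Oscar-/- sums of collagen VI were 73.0 and 52.42 TPM for sham, and 99.69 and 43.52 TPM for DMM. Collagen IX summed to 27.5 and 33.75 TPM in the WT sham libraries and 21.21 and 37.69 TPM in the WT DMM libraries. In the Oscar-/- libraries it summed to 45.04 and 38.82 TPM after sham but only 26.25 and 16.59 TPM with DMM. Collagen VI therefore exceeded collagen IX in every library, by the least in WT sham at 4 weeks.

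Correlations were taken as a description over the 8 libraries, each from its own pool of tissue and all scaled together. The log2 TMM-scaled values of the collagen VI genes correlated with each other at Pearson's r of 0.95 to 1.0. They correlated with Col8a1, Col12a1, Col14a1 and Col16a1 at 0.82 to 0.98. The collagen IX genes correlated with collagen VI at -0.20 to 0.35 and with the other 4 genes at -0.30 to 0.39, so that the collagen IX profile ran separately. Within collagen IX the range was 0.44 to 0.97, the highest value being that of Col9a2 and Col9a3.

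The 5 genes outside the list whose profile was nearest to the mean of the collagen VI genes were Rhoc (r = 0.992), Col4a2 (0.988), Serpinh1, Col1a2 and Fkbp10 (each 0.986). Rhoc is a small GTPase, Col4a2 a basement membrane collagen chain, Col1a2 a chain of collagen I, and Serpinh1 and Fkbp10 are chaperones of collagen folding. Nearest to collagen IX were Fancb (0.981), Cnmd (0.964), Fzd7 (0.938), Ihh (0.910) and Hdac9 (0.897), of which Cnmd encodes the cartilage glycoprotein chondromodulin and Ihh a growth plate hedgehog ligand. Nearest to the mean of Col8a1, Col12a1, Col14a1 and Col16a1 were Cthrc1 and Col4a1 (each 0.993), Aebp1 (0.991), Serinc5 (0.989) and Dysf (0.982). Cthrc1 and Aebp1 encode secreted matrix proteins.

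Other collagens moved with these genes. Over all genes tested, 4.4% rose after DMM in WT and 3.8% had a lower response in Oscar-/- by the interaction test. Of 11 fibrillar collagen genes 8 rose after DMM in WT (median 0.94) and 8 had a lower response in Oscar-/- by the interaction test (median -1.18), among them Col5a2 (-1.18, adjusted p = 0.00604), Col11a1 (-1.28), Col1a2 (-1.27) and Col11a2 (-0.92). Of 9 basement membrane collagen genes 5 were tested, 4 rose in WT (median 1.49) and 4 had a lower response in Oscar-/- (median -1.14), namely Col15a1 (-1.42, adjusted p = 0.00685), Col4a1 (-1.28), Col4a2 (-1.01) and Col18a1 (-1.14). Of 14 other non-fibrillar collagen genes only 4 were tested, and 2 rose in WT (median 0.40), while the interaction passed for Col22a1 (-1.0) and Col13a1 (-1.01) and not for Col10a1 (-0.83, adjusted p = 0.163) or Col8a2 (-0.60, adjusted p = 0.234).

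Proteins that bind or process these collagens were described by 3 further lists, to be read beside the same shares of 4.4% and 3.8% over all genes. Some genes of these lists are also among the cell type markers below. Of 16 matrix partners 15 were tested, 7 rose after DMM in WT (median 0.56) and 7 had a lower response in Oscar-/- (median -0.80). Tnxb, which encodes tenascin-X (-1.27, adjusted p = 0.00604), Fn1, which encodes fibronectin (-1.2), and the proteoglycan genes Lum (-1.23) and Bgn (-0.80) were the 4 with the lowest p. Of 11 cell surface receptors 3 rose in WT (median 0.31) and 5 had a lower response in Oscar-/- (median -0.45), led by the collagen receptor Ddr2 (-1.22, adjusted p = 0.0032). The others named were Antxr1 (-0.93), which encodes a collagen VI receptor, Cspg4 (-0.89), which encodes the NG2 proteoglycan, and the integrin gene Itga11 (-0.99). Of 25 genes of collagen modification, folding and processing 10 rose and 1 fell in WT (median 0.33), and 11 had a lower response in Oscar-/- (median -0.80), among them the lysyl hydroxylase Plod2 (-1.01), the lysyl oxidase-like Loxl2 (-1.24), and the procollagen processing genes Bmp1 (-0.87) and Pcolce (-0.94).

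Markers of other cell types moved in the same comparisons, some with the collagen genes and some the other way. Over all genes, 4.4% rose and 0.5% fell after DMM in WT, and the interaction called 3.8% lower and 1.4% higher. The marker lists share some genes with the collagen and partner lists, so their counts are not separate. Of 14 fibroblast and synovial markers 13 were tested, 9 rose after DMM in WT (median 0.70) and 8 had a lower response in Oscar-/-, and their summed level was 623.0 to 642.5 TPM in WT sham, 1266.5 to 1421.9 TPM in WT DMM, 901.8 to 1170.0 TPM in Oscar-/- sham and 716.8 to 1085.0 TPM in Oscar-/- DMM. Col1a1 and Col3a1 belong to that list. Of 10 endothelial markers 7 rose in WT and 4 had a lower response in Oscar-/-, with sums of 98.2 and 130 TPM in the WT sham libraries, 175.3 to 190.3 TPM in WT DMM, 132.6 to 133.8 TPM in Oscar-/- sham and 144.8 to 147.7 TPM in Oscar-/- DMM.

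Of 12 osteoblast and osteocyte markers 4 rose in WT and 5 had a lower response in Oscar-/-, with sums of 2868.1 to 3450.4 TPM in WT sham, 5050.6 to 5247.8 TPM in WT DMM, 4176.5 to 5198.0 TPM in Oscar-/- sham and 3597.0 to 3934.7 TPM in Oscar-/- DMM. Of 18 chondrocyte markers 16 were tested, and 1 rose and 1 fell in WT, where 4.4% of all genes rose and 0.5% fell. A lower response in Oscar-/- was called for 3 of them, beside 3.8% of all genes. Within Oscar-/- cartilage 15 of the 16 had DMM estimates below 0, with a median of -0.90 beside 0.01 over all genes. Of the 16, 1 was called lower there, beside 0.1% of all genes. The chondrocyte sum at 2 weeks was 3636.4 TPM in WT sham and 5467.8 TPM in Oscar-/- sham against 1992.8 and 1845.8 TPM after DMM. At 4 weeks the chondrocyte sum was 2404.8 and 2289.6 TPM in WT sham and DMM and 3225.7 and 1860.8 TPM in Oscar-/- sham and DMM. Skeletal muscle markers were highest in the WT sham library at 2 weeks, 234.0 TPM against 57.1 to 150.6 TPM in the others. Of 8 osteoclast markers 7 were tested, 6 rose in WT and 1 had a lower response in Oscar-/-, with sums of 750.4 to 986.2 TPM in WT sham, 1310.2 to 1558.6 TPM in WT DMM, 852.8 to 1180.3 TPM in Oscar-/- sham and 924.3 to 1025.3 TPM in Oscar-/- DMM, and Oscar itself is on that list. Blood cell and muscle markers had estimates of the opposite sign. Of 10 neutrophil markers 2 fell after DMM in WT and 10 of 10 had estimates below 0 (median -0.33), while the interaction called 0. Of 10 skeletal muscle markers 9 were tested and 2 fell in WT (median -1.5). Of 10 erythroid markers 9 were tested, 0 were called in WT with 9 of 9 estimates below 0 (median -0.30), and the interaction called 2 higher, with 9 of 9 above 0 (median 0.65). The haemoglobin share went from 37.7% to 30.7% with DMM in WT and from 32.4% to 34.5% in Oscar-/- at 2 weeks, and from 29.6% to 31.0% and from 26.5% to 37.0% at 4 weeks. Of 8 pericyte and smooth muscle markers 7 were tested, and 3 rose in WT and 3 had a lower response in Oscar-/-. No gene of these lists was at 0 in every library, and the part of these cells in the collagen results was not tested.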

How the data were processed

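RNA of articular cartilage was sequenced in 8 libraries from a stranded mRNA kit, 1 per condition. Per the labels the authors used FastQC 0.11.8, STAR 2.6.0a and RSEM 1.2.17. The deposited tables hold, per Ensembl gene, expected counts (estimated reads, not normalized), TPM and FPKM as the authors' software wrote them. TPM was used for levels, and the deposited FPKM values were not used. A human build is listed in the submitters' notes on processing, but identifiers are those of mouse genes. Of 52636 identifiers, 52403 matched GENCODE M21, which gave symbols and coordinates.

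Expected counts were rounded to whole numbers and fitted with edgeR 4.0.16 in R 4.3.3 (TMM scaling, quasi-likelihood test, genotype by surgery plus week, 3 residual degrees of freedom) over 12538 protein-coding genes with TPM above 1 in at least 1 library. P-values were adjusted by Benjamini-Hochberg over all of them, with a threshold of 0.05. DESeq2 1.42.0, limma 3.58.1 and 17 settings in all were tried. The fit was tested on simulated data. The expected counts of the 10 genes ran from 80 to 3578, a counting error of 1.7% to 11.2%, which covers counting only. The genes and lists were chosen with earlier results of these data known, so they are no independent evidence. Named genes were the 10 members, at most 4 per further list by lowest interaction p, and the 5 genes nearest each mean profile by Pearson's r of log2(TMM-scaled CPM + 1). Figures were drawn with matplotlib 3.10.9. Sequences came from the RefSeq promoter table.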

Additional observations from a re-analysis of the deposited data

Results flagged for a closer look

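For 4 of the 10 genes the response to DMM differed between the genotypes by a test of the difference itself, where 3.83% of all genes were called in the same direction. The calls changed when single libraries were left out, over all genes as well as for these 10, and were lost in some of these fits. Without a term for week, 0 of 10 and 0 of all genes passed. The interaction estimate on the log2 scale was -1.01 for Col6a1, -1.03 for Col6a2, -1.27 for Col6a3 and -1.14 for Col16a1, each a smaller response in Oscar-/- than in WT cartilage. Both surgeries entered these estimates. Against WT, Oscar-/- was higher after sham (0.51, 0.55, 0.72 and 0.58 in the same order) and lower after DMM (-0.5, -0.48, -0.55 and -0.57). None of these genes passed in either of those comparisons. Within the weeks, the difference of the single-library TPM ratios at 4 weeks was -1.48, -1.57, -2.05 and -1.81 for these genes in the same order. At 2 weeks it was -1.2, -1.15, -0.66 and -0.70. On TMM-scaled counts it was -1.27, -1.37, -1.75 and -1.79 at 4 weeks, and -0.79, -0.73, -0.84 and -0.57 at 2 weeks.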

How the results depend on the processing

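With 1 library per condition the labels pair no libraries, and week was a term of the fit instead. The number of the 10 genes called after DMM in WT, 7, became 0 without a term for week, and ranged from 4 to 7 when single libraries were left out. For DMM in Oscar-/- cartilage, 0 became 2 with scaling by library totals, 1 with limma on log2(TPM + 1) and 1 on log2(TPM + 0.1), and 5 without the TPM filter (0 to 2 with libraries left out). For Oscar-/- against WT after sham, 0 became 1 with library totals, 2 with DESeq2 and 6 without the filter (0 to 5). After DMM, 0 became 5 without the filter (0 to 6). For the interaction, 4 became 10 without the filter and 0 without the week term (0 to 8). For 4 against 2 weeks, 5 became 8 without the filter and 2 in an additive fit (5 to 7). Over all genes, the calls for DMM in WT, 610, became 1429 without the filter and ranged from 132 to 1728 with libraries left out, and those of the interaction, 657, became 1710 and ranged from 15 to 1977. DESeq2 gave 413 and 444 for these tests, and both were 0 without the week term. For DMM in Oscar-/- the calls over all genes, 14, became 135 with library totals, 94 and 88 with the 2 limma settings and 541 without the filter. Those of Oscar-/- against WT, 273 after sham and 6 after DMM, became 992 and 288 without the filter and 184 and 54 with DESeq2. Those of 4 against 2 weeks, 2775, became 995 in the additive fit. The fit without the filter also took in genes that do not code for protein, and tested more genes than the 12538 of the main fit. Its counts of called genes are therefore not on the same base as those of the main fit. The cause of the changes between settings was not tested. Of the log2 fold changes of the 10 genes over these settings, 803 kept their direction and side of the threshold, 83 passed it newly, 38 no longer passed and 36 changed direction. With limma on log2(TPM + 1), the DMM estimates in Oscar-/- turned to -0.0042 for Col6a2, -0.013 for Col8a1 and -0.029 for Col14a1, and on log2(TPM + 0.1) to -0.0074, -0.015 and -0.052. The 4 against 2 week estimates turned to 0.011 for Col9a1 with library totals, to 0.077, 0.08, 0.07 and 0.076 for Col8a1, Col9a1, Col9a2 and Col9a3 with limma on log2(TPM + 1), and to 0.1, 0.062, 0.073 and 0.084 on log2(TPM + 0.1). Leaving out libraries moved the DMM estimates in WT from -0.29 to 0.77 for Col9a1, -0.83 to 0.093 for Col9a2 and -0.87 to 0.2 for Col9a3. In Oscar-/- cartilage they ranged from -0.18 to 0.44 for Col6a1, -0.22 to 0.35 for Col6a2, -0.032 to 0.7 for Col6a3, -0.18 to 0.34 for Col8a1, -1.87 to 0.25 for Col9a1, -0.15 to 1.1 for Col12a1, -0.2 to 0.39 for Col14a1 and -0.19 to 0.55 for Col16a1. Oscar-/- against WT ranged from -0.039 to 1.02 after sham for Col9a1, and after DMM from -1.68 to 0.44 for Col9a1, -0.82 to 0.11 for Col9a2, -0.88 to 0.19 for Col9a3 and -1.13 to 0.12 for Col12a1. For Col9a1 the interaction ranged from -2.12 to 0.0017 and the 4 against 2 week estimate from -0.38 to 0.35. None of these estimates that changed direction had passed the threshold. With a library left out, 1 group holds a lone library that is assumed to vary like the others.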
